A study of Homo sapiens with 2 samples.

Results

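MHC class II genes were examined in L-428 cells, an established Hodgkin's lymphoma (HL) cell line, after knock-down of DUSP5. The 10 genes were HLA-DRA, HLA-DPA1, HLA-DPB1 and HLA-DQB1, which encode chains of the class II heterodimers, HLA-DMA, HLA-DMB, HLA-DOB and CD74, which act in peptide loading, and CIITA and RFX5, which act in class II transcription. All probe sets whose only gene symbol in the platform annotation is 1 of these 10 were taken, which gave 22 probe sets of 19065 with 1 symbol, or 10 genes of 11963. RNA was hybridised to 2 Affymetrix HG_U133A arrays. For 1 array, L-428 cells had been transfected with pcDNA6.2-GW/EmGFP-miR-DUSP5, which expresses an artificial microRNA against DUSP5, a nuclear phosphatase that inactivates ERK. For the other array, cells had received pcDNA6.2-GW/EmGFP-miR-neg, a vector that the study's methods call empty and whose name points to a negative-control microRNA. Both vectors carry EmGFP, so that both cell populations received a reporter and a plasmid. The time after transfection, the share of cells that took up the vector and any selection of these cells are not given in the sources used here.

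Class II molecules present peptides from endosomes to CD4+ T cells, and are made by B cells, dendritic cells, macrophages and thymic epithelium. An alpha and a beta chain assemble in the endoplasmic reticulum with the invariant chain CD74, which blocks the peptide groove and directs the complex to endosomes. There proteases degrade CD74, HLA-DM exchanges the remaining fragment for other peptides, and HLA-DO restrains HLA-DM. Transcription of these genes depends on a promoter module of an X box and a Y box, which bind RFX, CREB and NF-Y, and on CIITA, a coactivator that does not bind DNA itself and is recruited by these factors. HL cells derive from B cells that have lost much of the B cell program, and loss of class II molecules from tumor cells is known in this disease.

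The deposited values are MAS5 signal intensities, a linear measure of the brightness of a probe set after scaling of both arrays to a target intensity of 500. The log2 ratio of the signal after knock-down over that in control cells was computed for each probe set, so that 1 stands for a doubling. Because each condition has 1 array, differences could not be checked against replicates, and p-values are not given. The error given is the standard deviation (SD) of log2 ratios among probe sets that share a gene and a range of mean signal, which fell from 1.19 at signals under 100 to 0.26 at 3000 and over. It covers probe error only, while the spread between cultures is unknown. A gene or probe set is called measured from a mean signal of 200, and the 6301 measured genes had a median log2 ratio of 0.01. DUSP5 itself had signals of 628 in control and 368 in knock-down cells, with a log2 ratio of -0.77 (SD 0.41). All 9 listed HL markers, among them TNFRSF8 (CD30), CCL17 and GATA3, were measured, whereas of 9 B cell markers with a probe set only PAX5 and SPIB were. None of 7 T cell markers and none of 7 markers of monocytes and macrophages reached a mean signal of 200, with summed signals of 329 in control cells and 507 after knock-down for the former and of 339 and 468 for the latter.

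Promoter sequences from RefSeq (GRCh38.p14, 250 bases before to 50 after the transcription start) were found for 8 of the 10 genes. They are shown because the same module is shared by genes whose signals are compared in the following. Letters were searched on both strands. GATTGG is the core of the Y box, read as CCAATC on the opposite strand, and was present in 6 of the 8 genes (HLA-DMA, HLA-DMB, HLA-DOB, HLA-DPB1, HLA-DQB1 and RFX5) and in 15.1% of all 34943 promoters. ACAGATG from the end of the X box was present in HLA-DQB1 and CD74 and in 3.90% of all promoters. In HLA-DQB1 it was followed on the same strand by GATTGG with 10 to 40 bases between, an arrangement found in 8 of 34943 promoters (0.0229%). CTGATGATG, chosen after the promoters were read, was present in HLA-DMA, HLA-DMB and HLA-DOB and in 0.272% of all promoters. No motif searched overlaps another within these stretches, all of which end before the transcription start. They are given 5′ to 3′ in the direction of transcription, and capitals mark the searched letters on either strand.
HLA-DQB1, chr6:32666708-32666788, minus strand: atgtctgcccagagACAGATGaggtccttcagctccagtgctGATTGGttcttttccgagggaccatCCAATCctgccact
HLA-DMA, chr6:32953164-32953219, minus strand: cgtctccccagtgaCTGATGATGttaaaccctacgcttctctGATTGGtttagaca
HLA-DOB, chr6:32817063-32817141, minus strand: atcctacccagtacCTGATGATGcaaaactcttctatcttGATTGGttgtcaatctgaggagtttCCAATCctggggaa
HLA-DMB, chr6:32941095-32941125, minus strand: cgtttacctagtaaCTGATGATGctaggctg
HLA-DPB1, chr6:33075901-33075928, plus strand: ttctcagactctgtCCAATCccagggtc
HLA-DQB1 and HLA-DOB each held GATTGG and, further downstream, CCAATC. In HLA-DMA and HLA-DOB, CTGATGATG lay upstream of GATTGG, as ACAGATG did in HLA-DQB1. In HLA-DMB the letters CCAATC lay closer to the start, 22 bases before it, and are outside the stretch shown. A match describes these letters only and does not show that a factor binds there.

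Most class II probe sets had a higher signal after knock-down of DUSP5 as deposited, a direction that among the scales tried turned only when signals were set relative to GAPDH and ACTB. Of the 22 probe sets, 16 had a mean signal of at least 200, and 15 of these 16 had a log2 ratio above 0, against 50.1% of all 10184 probe sets at this signal. A difference of at least 1.5-fold upwards was present in 9 of the 16, against 15.9% of all probe sets, and none of the 16 was 1.5-fold lower. Of all probe sets, 20.5% were that much lower at mean signals from 1000 to 3000, but 9.50% from 3000 to 10000. At 10000 and over it was 0.405%, so that few lower values occur at high signal in any case. Ratios of the 16 ranged from -0.036 for CIITA to 0.89 for HLA-DPB1, with a median of 0.63. For 13 of the 16 the ratio exceeded 1 SD between probe sets of a gene, and for 10 it exceeded 2 SD. The share of all probe sets beyond these SD limits was not computed, so these 2 counts have no background. With each gene represented by its brightest probe set, 9 of the 10 genes were measured. HLA-DRA, HLA-DPB1, HLA-DQB1, CD74 and RFX5, 5 of these 9, were at least 1.5-fold higher, compared with 15.6% of all measured genes. HLA-DPA1, HLA-DMA, HLA-DMB and CIITA lay between the limits, and 0 of the 9 were 1.5-fold lower, compared with 19.0% of all measured genes. Neither share of all genes was matched for signal, and HLA-DRA, HLA-DPA1, HLA-DPB1, HLA-DQB1 and CD74 have bright probe sets. The median over the 9 genes was 0.61. Because the signals come from RNA of a whole culture, a different share of cells that express a gene and a different amount of RNA per cell cannot be told apart.

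**Figure D1:**
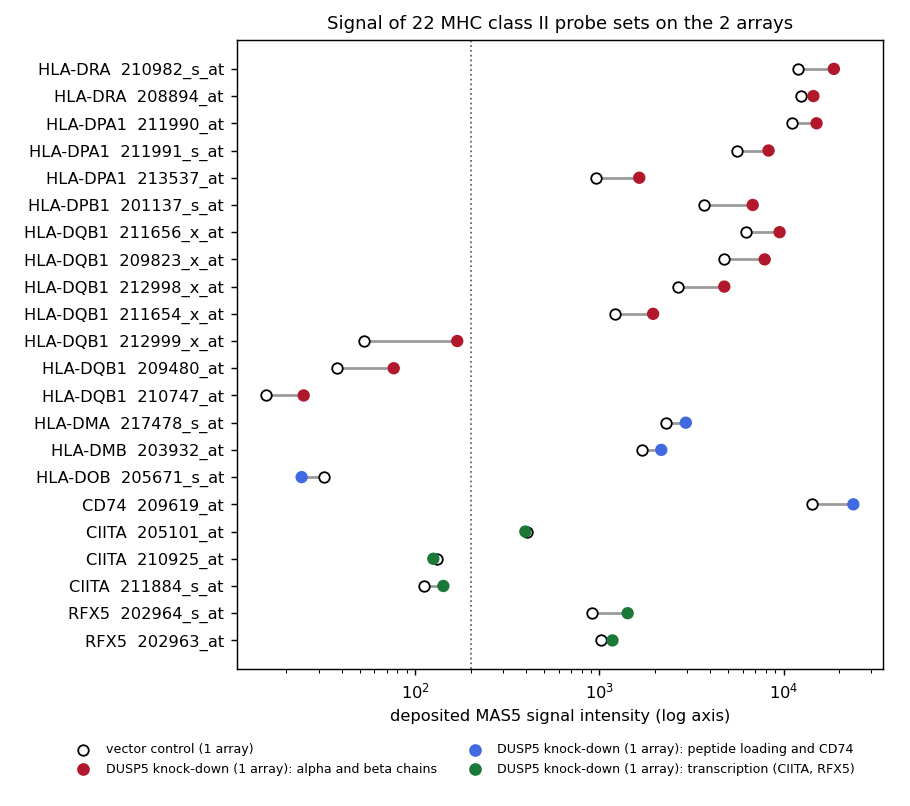
Deposited MAS5 signal intensity (log axis) of the 22 class II probe sets in control cells (open circles) and after knock-down of DUSP5 (filled circles, coloured by role), with 1 array a condition and no error bars. The dotted line marks a signal of 200. The filled circle lies to the right of the open one in 19 of 22 probe sets, and for CIITA both are close together.

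Part of this shift was shared by other bright probe sets. Over all probe sets, the log2 ratio depended on signal, with medians of -0.037 at mean signals from 1000 to 3000, 0.16 from 3000 to 10000 and 0.52 at 10000 and over. The number of probe sets at 10000 or more was 204 in control cells and 282 after knock-down. At 10000 and over, all 4 class II probe sets (both of HLA-DRA, 1 of HLA-DPA1 and that of CD74) had ratios above 0, as did 90.7% of all probe sets there. In this range 2 of the 4 were at least 1.5-fold higher, against 41.7% of all, and their median of 0.55 lay close to that of all. From 3000 to 10000, by contrast, 4 of 5 class II probe sets were at least 1.5-fold higher, against 21.6% of all, with a median of 0.73. These 4 were that of HLA-DPB1 and 3 of HLA-DQB1, whose probes can also detect related transcripts. The 3 are not independent of each other, so that the count covers fewer genes than probe sets. From 1000 to 3000 it was 3 of 6, against 15.3% of all, with a median of 0.50. The medians of class II and of all probe sets thus lay further apart in both ranges from 1000 to 10000 than at 10000 and over, where only 4 class II probe sets lie.

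To describe the ratios without this dependence, a lowess curve of ratio against brightness (mean log2 signal, span 0.3) was subtracted. On this scale 15 of the 16 probe sets were again above 0, against 50.2% of all, but a different one was below it. HLA-DRA had 1 probe set at -0.19 and CIITA was at 0.01. Those at least 1.5-fold higher numbered 5 of the 16, against 15.7% of all. They were the probe sets of HLA-DPB1 (0.70), 2 of HLA-DQB1 (both 0.72), 1 of HLA-DPA1 (0.83) and 1 of RFX5 (0.71). The median over the 16 was 0.33, and 10 of the 16 exceeded 1 SD between probe sets, compared with 13 as deposited. On this scale too the share of all probe sets beyond 1 SD was not computed, so that this count has no background.

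**Figure D2:**
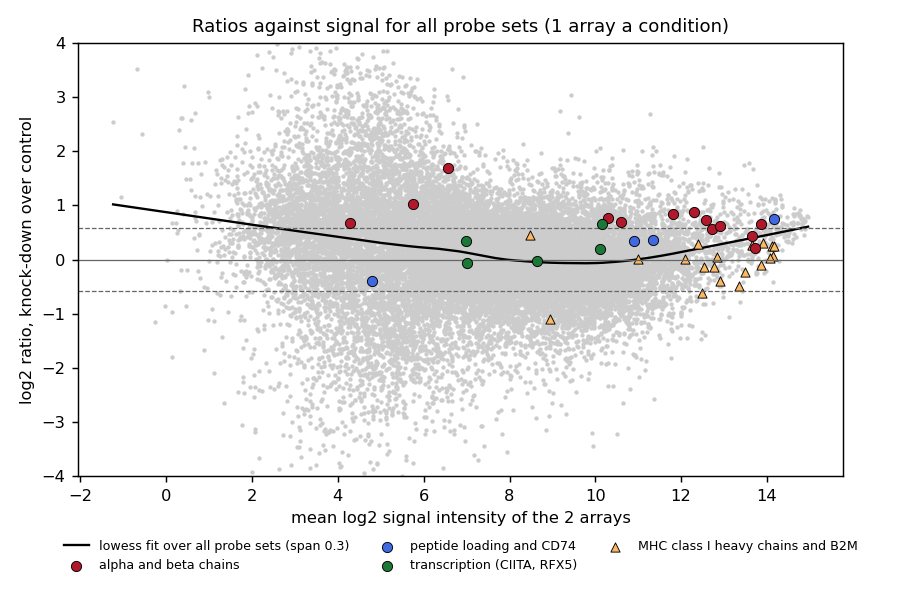
Log2 ratio (knock-down over control, vertical) by mean log2 signal (horizontal) for all 22215 probe sets other than controls (grey), with class II probe sets coloured by role and MHC class I probe sets as triangles. The black line is the lowess fit, dashed lines mark 1.5-fold, and 57 grey points fall beyond the vertical range. The fit climbs at high signal, where HLA-DRA, HLA-DPA1 and CD74 lie near it, whereas HLA-DPB1 at 0.89 lies above it.

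As deposited, HLA-DPA1, HLA-DPB1, HLA-DQB1 and HLA-DRA, the 4 chain genes among the 10, were higher after knock-down at every probe set, whereas relative to GAPDH and ACTB no measured one was. HLA-DPB1, the beta chain of HLA-DP, had 1 probe set (201137_s_at), with signals of 3683 in control and 6804 in knock-down cells. This 1.85-fold difference, a log2 ratio of 0.89 (SD 0.26), was the highest among the 16 measured class II probe sets, and remained at 0.70 after the lowess fit was subtracted. HLA-DPA1, the alpha chain of the same molecule, had 3 probe sets. Of these, 211990_at gave 11137 and 15111, a ratio of 0.44. The probe set 211991_s_at gave 5576 and 8289, or 0.57, and 213537_at gave 962 and 1647, or 0.78. The ratio was thus higher at dimmer probe sets of HLA-DPA1, and after the fit was subtracted this order was more pronounced, with 0.04, 0.32 and 0.83. The mean of the 3 ratios was 0.60 ± 0.17 (SD between probe sets, n = 3). Both HLA-DP chains were above 0 as deposited and after subtraction of the fit, but not relative to GAPDH and ACTB.

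HLA-DQB1, the beta chain of HLA-DQ, had 7 probe sets, and 4 of them were measured. Signals in control cells and after knock-down were 6222 and 9520 at 211656_x_at, with a ratio of 0.61. They were 4766 and 7899 at 209823_x_at, with a ratio of 0.73. They were 2677 and 4767 at 212998_x_at (0.83), and 1215 and 1957 at 211654_x_at (0.69). These 4 ratios were close to each other, with a mean of 0.72 ± 0.09 (SD between probe sets, n = 4). All 4 are of the type _x_at, whose probes can also detect related transcripts, so that they are not independent of each other or of other DQ genes. After the fit was subtracted they were 0.33, 0.50, 0.72 and 0.72. The 3 dim probe sets gave 52.6 and 169, 37.5 and 76.4, and 15.5 and 24.8. All 3 were higher after knock-down, with ratios of 1.68 (SD 0.73), 1.03 (SD 1.19) and 0.68 (SD 1.19), and only the first exceeded its SD. HLA-DQA1, which encodes the alpha chain that pairs with HLA-DQB1 and was not among the 10 genes, gave 6438 and 10043, a ratio of 0.64.

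HLA-DRA, the single alpha chain of HLA-DR, had 2 bright probe sets that differed. The probe set 210982_s_at gave 11926 in control and 18759 in knock-down cells, a ratio of 0.65 (SD 0.26). For 208894_at the signals were 12454 and 14523, a ratio of 0.22 (SD 0.26), which is within 1 SD. The difference between the ratios of these probe sets was 0.43, compared with an SD of 0.37 for such a difference at signals of 3000 and over. After the lowess fit was subtracted, the ratios were 0.22 and -0.19, so that the direction of HLA-DRA depended on the probe set and on the scale. DR beta chains pair with HLA-DRA, and of their listed genes other than a pseudogene only HLA-DRB1 was measured. HLA-DRB1 gave 17227 and 14968, a ratio of -0.20 (SD 0.26), which is within 1 SD. After subtraction of the fit its ratio was -0.65. HLA-DRB6, a DR beta pseudogene, gave 351 and 483, a ratio of 0.46 (SD 0.41), at its measured probe set and 2.17 (SD 1.19) at a dim one. The 3 probe sets of HLA-DRB4 were dim, with ratios of 0.78, 1.02 and 0.55, all within the SD of 1.19. A further 5 probe sets carry the symbols of several class II genes and cannot be assigned to 1 of them. Their ratios ranged from -0.50 to 0.47 with a median of 0.07, and none was 1.5-fold higher. All but 1 of them were brighter than 3000, a range where 26.2% of all probe sets were that much higher. The exception was dim, with signals of 201 and 142. After the fit was subtracted, none of the 5 was above 0. In order of falling signal their ratios were then -0.02, -0.002, -0.28, -0.36 and -0.56, the last from the dim one. These probe sets thus did not share the higher values of most of the 16 measured ones on that scale.

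CD74, the invariant chain, had signals of 14318 in control and 23929 in knock-down cells. The log2 ratio of 0.74 (SD 0.26) fell to 0.26 when the lowess fit was subtracted. HLA-DMA and HLA-DMB, which form the peptide exchange factor HLA-DM, had almost the same ratio. HLA-DMA gave 2303 and 2946, a ratio of 0.36 (SD 0.30), and HLA-DMB gave 1703 and 2169, a ratio of 0.35 (SD 0.30). Both exceeded 1 SD but not 1.5-fold, and the fit changed them little (0.31 and 0.35). HLA-DOB, the beta chain of the HLA-DM inhibitor HLA-DO, gave 32 and 24, a ratio of -0.40 with an SD of 1.19, and was not measured by the limit of 200. HLA-DOA, the alpha chain of HLA-DO, gave 291 and 280, a ratio of -0.05 (SD 0.41). Neither HLA-DO chain therefore differed beyond the SD between probe sets.

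CIITA, which sets the level of class II transcription in most cells, did not have a higher signal after knock-down at its measured probe set. This probe set (205101_at) gave 406 and 396, a ratio of -0.036 (SD 0.41), so that a difference of up to about 1 SD in either direction could not be seen. The other probe sets were dim, with 132 and 125 at 210925_at (-0.07, SD 0.73) and 112 and 142 at 211884_s_at (0.35, SD 0.73). All 3 ratios of CIITA lay within 1 SD of 0. RFX5, the DNA-binding subunit of the RFX complex, gave 907 and 1424 at 202964_s_at, a ratio of 0.65 (SD 0.30). At 202963_at it gave 1023 and 1178, a ratio of 0.20 (SD 0.30). The probe sets of RFX5 thus had the same direction but differed by 0.45, compared with an SD of 0.43 for such a difference at this signal. Subtraction of the fit gave 0.71 and 0.27.

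**Figure D3:**
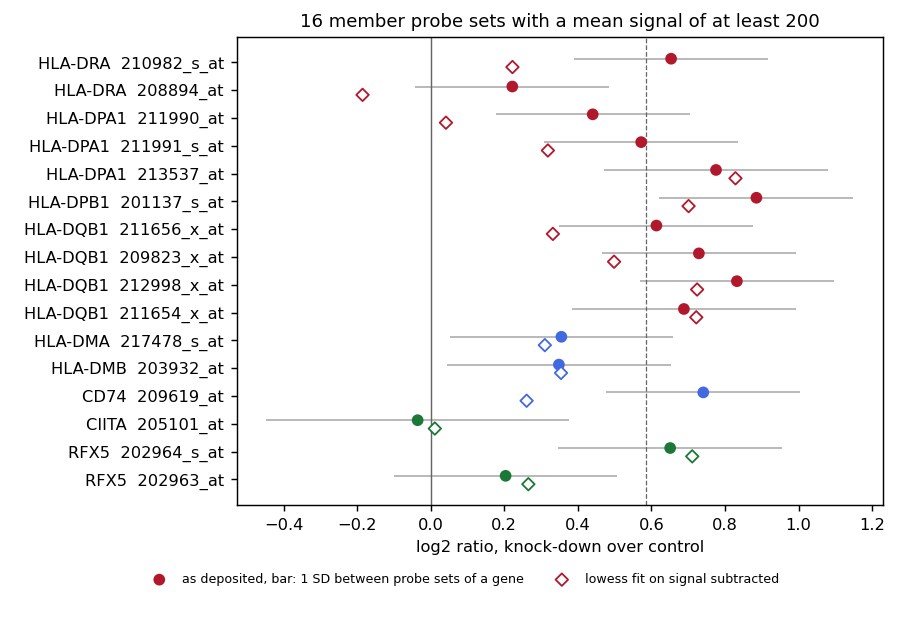
Log2 ratios (knock-down over control) of the 16 measured class II probe sets, as deposited (filled circles, bars of 1 SD between probe sets of a gene at similar signal) and after subtraction of the lowess fit (open diamonds). The dashed line marks 1.5-fold. As deposited only CIITA lies below 0, at -0.036, and after subtraction only 208894_at of HLA-DRA does, at -0.19, while relative to GAPDH and ACTB all 16 lie below 0.

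The scale on which the arrays are compared sets the direction of these values. GAPDH, a glycolytic enzyme, and ACTB, a cytoskeletal actin, are common reference genes, and all 5 of their probe sets were higher after knock-down, with ratios from 0.76 to 1.12 and a median of 0.94. Relative to this median, none of the 16 class II probe sets was above 0, and their ratios ranged from -0.97 to -0.050. This scale moved the median of all measured genes to -0.93, and the 9 class II genes stayed 0.60 above that median, as they were before. The median of the class II genes thus lay above that of all measured genes on each scale, by 0.60 as deposited and relative to GAPDH and ACTB, 0.30 after quantile normalization of the arrays and 0.30 after subtraction of the lowess fit. Quantile normalization left 15 of the 16 probe sets above 0, with a median of 0.34. All 6 listed reference genes, which also include TBP, HPRT1, PPIA and TFRC, were above 0 at their brightest probe sets. Their ratios ranged from 0.33 to 1.85, with a median of 0.84, against 0.61 for the 9 class II genes. The reference median was 0.50 after subtraction of the fit and 0.47 after quantile normalization, against 0.31 and 0.34 for the class II genes.

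MHC class I genes also have bright probe sets and were used as a comparison on the same arrays. Class I molecules present peptides from the cytosol, with B2M as the shared light chain. At mean signals of 3000 and over, 9 of 9 class II probe sets were above 0, against 69.1% of all probe sets there, and 6 were at least 1.5-fold higher, against 26.2% of all, with a median of 0.65. Of 16 class I probe sets at this signal, 9 were above 0 and none was 1.5-fold higher, with a median of 0.02 and a range from -0.62 to 0.30. The 1 that was 1.5-fold lower had a mean signal of 5905. Of all probe sets from 3000 to 10000, 9.50% were that much lower. Most of the 16 are of the type _x_at, whose probes can also detect related transcripts, so that they are not independent of each other. The same holds for the HLA-DQB1 probe sets among the 9 of class II. B2M gave 15328 and 14277, a ratio of -0.10, at its brighter probe set, and -0.49 at its other one. HLA-B and HLA-C both had a ratio of 0.26 at their brightest probe sets. The other probe sets gave 0.30 and 0.26 for HLA-B, and 0.07, 0.02 and -0.13 for HLA-C. After subtraction of the fit the median was 0.32 for class II and -0.38 for class I, and after quantile normalization these medians were the same to 2 decimals. With 1 array a condition the difference between both families was not tested.

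Genes that act with CIITA on class II promoters were listed next. Of 8 genes with a probe set, 5 were measured, and at their brightest probe sets none was 1.5-fold higher or lower, with a median of 0.34. Over all measured genes, 15.6% were that much higher and 19.0% that much lower, which is the background for this list and the following ones. NFYC, NFYA and NFYB are the subunits of NF-Y, which binds the Y box. NFYC gave 760 and 1088 (0.52), NFYA 460 and 582 (0.34), and NFYB 595 and 541 (-0.14). CREB1, which binds the X box beside RFX, gave 573 and 759 (0.40) at its brightest probe set, and its 3 other measured probe sets were all at least 1.5-fold higher, with ratios of 0.74, 1.15 and 1.03. Of the RFX subunits besides RFX5, RFXANK gave 546 and 463 (-0.24) and RFXAP was dim, with 142 and 83.1 (-0.78, SD 0.73). At the brightest probe sets of the 5 measured genes, only NFYC and CREB1 exceeded the SD of 0.36 at this signal. Of 8 measured cofactors that modify chromatin with CIITA, SMARCA4 was at least 1.5-fold higher (0.59), and SIRT1 (-1.39) and CREBBP (-0.71) were that much lower.

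Regulators of CIITA itself showed no common direction. Of 8 measured transcription factors, MYC was 1.5-fold higher (0.60) and BCL6 1.5-fold lower, with 1698 and 734 (-1.21), and the median was 0.04. IRF4 gave 5241 and 7311 (0.48) at its brightest probe set and 1.12 at its other measured one, whereas IRF2 (-0.31) and PAX5 (-0.35) were below 0. IRF1, which activates CIITA after interferon-gamma, gave 1042 and 1146 (0.14), and PRDM1, a repressor of CIITA in plasma cells, had a ratio of 0.00. Interferon-gamma is the main inducer of class II outside professional antigen-presenting cells. Of 10 measured genes listed for its response, none was 1.5-fold higher and 4 were 1.5-fold lower, against 15.6% and 19.0% of all measured genes, with a median of -0.15. This list includes the receptor and kinase genes IFNGR1, IFNGR2, JAK1 and JAK2 and does not cover the whole response. Genes of class I loading and of costimulation and adhesion are listed separately below, and some of them were 1.5-fold higher. CXCL10, a chemokine, gave 4589 in control and 1122 in knock-down cells (-2.03). IFNGR1, a chain of the interferon-gamma receptor, gave 3504 and 872 (-2.01). WARS1 (-1.56) and GBP2 (-0.80) were the others.

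**Figure D4:**
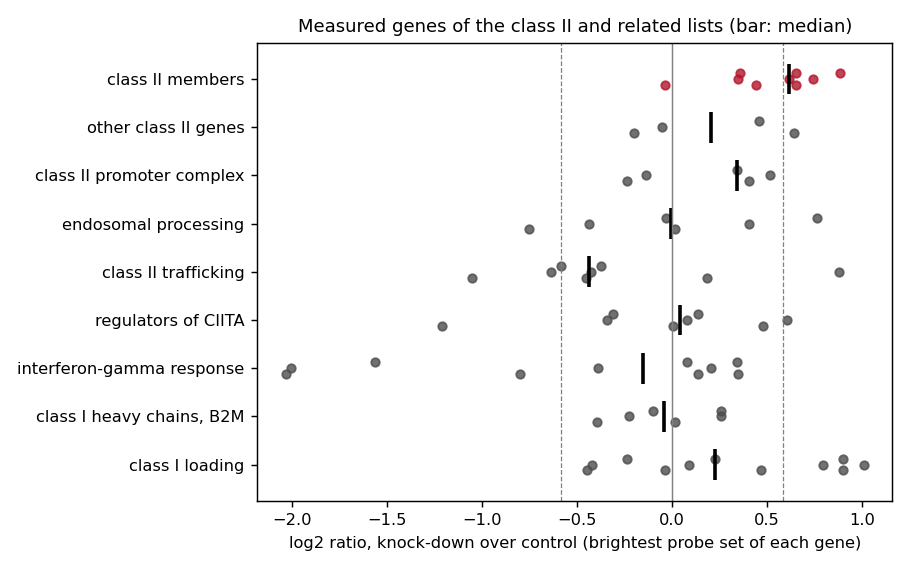
Log2 ratios (knock-down over control, as deposited) of the measured genes of the class II group and of related gene lists, each gene by its brightest probe set, with the median of each list as a bar and 1.5-fold as dashed lines. The median is 0.61 for the 9 measured class II genes, -0.15 for interferon-gamma response genes and -0.042 for class I heavy chains and B2M. Relative to GAPDH and ACTB every median would be 0.94 lower.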

How the data were processed

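Biotinylated cRNA from total RNA of L-428 cells was hybridised to 2 arrays, 1 for each vector. The authors processed the scans with Affymetrix Expression Console and MicroarraySuite 5.0 (MAS5), and the deposited values are signal intensities on a linear scale, with a common target intensity of 500. No use was made of detection calls. Each array held 22283 probe sets. Of these, 68 control probe sets were left out, and 19065 had 1 symbol, 1043 several and 2107 none in the platform annotation of 2016. Median signals were 161 in control cells and 164 after knock-down. The precision is limited by the number of arrays.

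Log2 ratios were computed from the deposited signal intensities without further normalization. Each gene was represented by its brightest probe set and counted as measured from a mean signal of 200. The genes named were every class II gene with all probe sets, up to 3 measured genes with the highest and lowest ratio in each list, and a fixed set of regulators and reference genes. RFXAP, PRDM1, GBP2, TAP1, TAPBPL and HLA-DRB4 were named after their values were seen. The genes, lists, limits and alternatives were chosen with earlier results of these data known. Alternatives were quantile normalization, a lowess fit (span 0.3), 32 added to each signal, ratios relative to GAPDH and ACTB, other limits on signal and fold, averages over a gene's probe sets, and exclusion of the _s_at and _x_at types. The steps were run on simulated data with a shift larger than any measured class II ratio, so that this run does not cover differences of the size reported. Promoters came from a RefSeq table. A planned comparison of protein sequences was not run. Python 3.11.15, numpy 2.4.6, pandas 2.3.3, statsmodels 0.14.6 and matplotlib 3.10.9 were used.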

Additional observations from a re-analysis of the deposited data

How the results depend on the processing

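No paired analysis was possible because there is 1 array per vector. With 32 added to each signal, no filter on low signals, a mean signal of at least 500 or averages over a gene's probe sets, 4 or 5 class II genes were at least 1.5-fold higher, and the median of the class II genes lay between 0.44 and 0.63. The number of genes that much higher was 2 with quantile normalization and 2 after subtraction of the lowess fit, with medians of 0.34 and 0.31. It was 1 of 6 measured genes when the _s_at and _x_at types were excluded (median 0.29). The shares of all genes that much higher were 16.5%, 15.5% and 14.5% in these settings, so that 2 of 9 and 1 of 6 lie near them. At a limit of 2-fold it was 0, against 4.38% of all genes. Relative to GAPDH and ACTB, 0 genes were 1.5-fold higher and 2 of 9 lower, against 0.920% and 73.0% of all measured genes, with a median of -0.32, since by its construction this scale subtracts 0.94 from every ratio. On this scale ratios above 0 turned to -0.28 and -0.71 for HLA-DRA (210982_s_at and 208894_at), -0.16, -0.50 and -0.36 for HLA-DPA1 (213537_at, 211990_at and 211991_s_at), -0.050 for HLA-DPB1, -0.32, -0.21, -0.10, -0.25 and -0.26 for HLA-DQB1 (211656_x_at, 209823_x_at, 212998_x_at, 211654_x_at and 210747_at), -0.58 for HLA-DMA, -0.59 for HLA-DMB, -0.19 for CD74, -0.59 for CIITA (211884_s_at), and -0.28 and -0.73 for RFX5 (202964_s_at and 202963_at). The number of arrays limits all of these values. Which scale is closer to the amount of RNA in the cells was not tested.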

Other observations

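Genes that carry class II molecules through endosomes and lysosomes went in both directions. The counts of the following lists stand against 15.6% of all measured genes that were 1.5-fold higher and 19.0% that were 1.5-fold lower. Of 8 measured genes of trafficking and turnover, CD63, a tetraspanin of the compartments where class II molecules are loaded, was at least 1.5-fold higher, with 4303 in control cells and 7924 after knock-down (0.88). LAMP2, a lysosomal membrane protein, gave 1560 and 752 (-1.05), and TMEM30A gave 3371 and 2164 (-0.64), and the median of the 8 was -0.44. LAMP1 was just inside the limit at its brightest probe set, at -0.58, but beyond it at its other measured ones, with -0.73 and -0.92. Of 6 measured proteases and related enzymes of endosomes, CTSA was 1.5-fold higher (0.76) and CTSB 1.5-fold lower (-0.75). CTSS, which cleaves CD74 in B cells, gave 784 and 766 (-0.03). The median of these 6 was -0.01.

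Other genes of antigen presentation went in both directions. Of 10 measured genes of costimulation and adhesion, TNFRSF8 (1.07), ICAM1 (1.02) and CCL17 (0.99) were 1.5-fold higher. The other measured probe sets of ICAM1 had ratios of 0.17 and 1.03. CD86, a ligand of CD28 on T cells, gave 2166 and 1081 (-1.0), and CD80, the other such ligand, gave 840 and 592 (-0.50). Of 11 measured genes of class I loading, 4 were 1.5-fold higher and none was 1.5-fold lower, against 15.6% and 19.0% of all measured genes. These were PSMB8 (1.01) and PSMB10 (0.90), which are subunits of the immunoproteasome, PSME1 (0.90), a subunit of its activator, and TAPBPL (0.79). PSMB9, another immunoproteasome subunit, had a ratio of -0.24. Among 12 measured neighbours of the class II genes, PSMB8 and DAXX (1.39) were 1.5-fold higher at their brightest probe sets. DAXX had a ratio of 0.50 at its other measured one. The share of neighbours that much higher is close to the 15.6% of all measured genes, and none of the 12 was 1.5-fold lower. Their median was -0.01, compared with 0.61 for the 9 class II genes, and after subtraction of the lowess fit these medians were 0.01 and 0.31. The 9 include CD74, CIITA and RFX5, which lie on chromosomes 5, 16 and 1 and thus outside this region. TAP1 gave 1176 and 1253 (0.09), and TAP2 265 and 194 (-0.45).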
